A study of Homo sapiens with 6 samples.

Results

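Transglutaminases are enzymes that need calcium and join the side chain of a glutamine in one protein to that of a lysine in another, which leaves a bond that most proteases cannot cut. The family described here has 8 genes, TGM1 to TGM7 and F13A1, the gene of the catalytic A subunit of coagulation factor XIII. They were chosen by gene name, with their values in these libraries already known. Of the 8 genes, 6 were found among the 17039 genes of the expression matrix by their symbol, and TGM6, TGM7 and EPB42, which codes for the catalytically inactive relative protein 4.2, were not analysed here. The comparison is of 231-BR cells, a brain-seeking variant selected from a triple-negative breast cancer line, with MDA-MB-231, the parental line, and each line had 3 libraries of poly(A) RNA read in pairs of 100 bases. Both lines were grown in DMEM with 10% fetal bovine serum and antibiotics, and the 231-BR medium also held 200 μg/mL of the selection drug G418, so that the drug and the line cannot be told apart. The 231-BR stock came from the National Cancer Institute and the MDA-MB-231 stock from ATCC. The source of the stock and the line cannot be told apart either. In one field of the labels the number in the line's name rises by 1 from library to library, and the libraries were grouped by their titles. The sources do not say whether the 3 libraries of a line came from separate cultures, so the errors below measure the spread between libraries, which may be technical.

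The members differ in where they are made and in what they join. TGM2 codes for tissue transglutaminase, which is found inside the cell, at its surface and in the matrix, where it crosslinks fibronectin and acts as a co-receptor with integrins. It also binds GTP, and many invasive and drug-resistant carcinoma cells express it. TGM1, TGM3 and TGM5 are enzymes of the epidermis and crosslink the cornified envelope of keratinocytes, TGM4 is the prostate enzyme, and factor XIII, made by platelets and macrophages, crosslinks fibrin in a clot.

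The coding sequence around the active site shows how alike the genes are near the codon of the catalytic cysteine. Whether a short read could be assigned to the wrong member was looked at with stretches of 50 bases from all annotated transcripts. Each line below gives 57 bases from the longest coding transcript of the gene in GENCODE release 29 (GRCh38), 5′ to 3′ on the strand of the gene, with the codon of the catalytic cysteine in capitals.
TGM2: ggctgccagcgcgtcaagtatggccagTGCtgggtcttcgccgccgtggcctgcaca
TGM1: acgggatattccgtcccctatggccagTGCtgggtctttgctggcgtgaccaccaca
TGM3: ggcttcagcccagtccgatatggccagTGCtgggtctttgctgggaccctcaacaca
TGM4: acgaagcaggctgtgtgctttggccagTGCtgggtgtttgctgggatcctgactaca
TGM5: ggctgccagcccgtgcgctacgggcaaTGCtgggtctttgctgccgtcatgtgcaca
F13A1: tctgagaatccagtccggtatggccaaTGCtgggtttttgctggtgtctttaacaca
In TGM2 this is codon 277, at chr20:38146745-38146747 on the minus strand, in exon 6 of 13. Of the 57 bases, TGM5 shared 43 with TGM2, TGM1 shared 39, TGM3 shared 37, F13A1 shared 33 and TGM4 shared 30. Over the whole coding sequence the identity to TGM2 ran from 62.7% for TGM4 to 66.5% for TGM1 among these 5 genes. No stretch of 50 bases in any annotated transcript of a family member occurred in a transcript of another member, on either strand. Outside the family, TGM2 transcripts shared stretches of 50 bases with 6 genes, and stretches of 100 bases with RPRD1B alone. The part of these genes in the values of TGM2 was not tested.

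TGM2 (gene identifier 7052) was the member in which the lines differed most. Its FPKM, the number of sequenced fragments scaled to the length of the transcript and the size of the library, was 142.39, 142.24 and 136.58 in the MDA-MB-231 libraries and 0.36, 0.32 and 0.38 in the 231-BR libraries. The groups lay far apart, and within each line the 3 libraries were close to each other. The mean was 140 ± 3.31 FPKM in MDA-MB-231 cells and 0.353 ± 0.031 FPKM in 231-BR cells (mean ± SD, n = 3 each). The 231-BR mean was thus 0.252% of the MDA-MB-231 mean. The ratio of the means was 397, and single libraries of the lines gave ratios from 359 to 445. On the scale of log2(FPKM + 0.1), the log2 fold change of 231-BR relative to MDA-MB-231 cells was -8.28, beside SDs between libraries of 0.10 in 231-BR and 0.034 in MDA-MB-231 cells. No test is given for this gene or for the other members, because the members were chosen with this contrast known.

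Among the 13465 genes with a mean of at least 0.1 FPKM over the 6 libraries, this was the largest decrease in 231-BR cells, and the next was that of KISS1, with a log2 fold change of -6.58. The median over all these genes was 0.08. In the MDA-MB-231 libraries TGM2 ranked between 519 and 549 of the 17039 genes by FPKM, which placed it above 96.8% to 97.0% of them. In the 231-BR libraries it ranked between 12138 and 12296, above 27.7% to 28.6% of the genes. There were 759 genes with at least 100 FPKM in every MDA-MB-231 library, and TGM2 was the only 1 of them that stayed under 1 FPKM in every 231-BR library. With a limit of 10 FPKM in the 231-BR libraries, 2 of the 759 were left, TGM2 and the chemokine gene CXCL1.

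**Figure D1:**
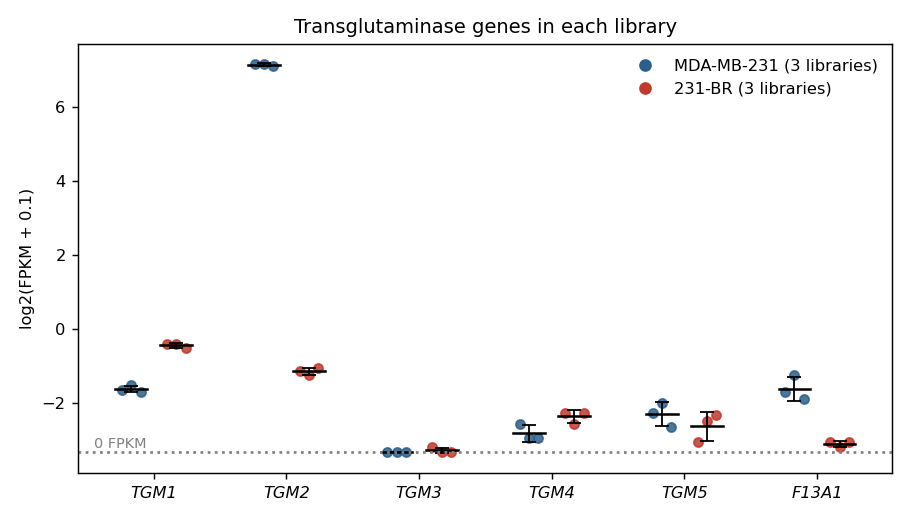
Level of each transglutaminase gene in each library, as log2(FPKM + 0.1) on the vertical axis, with 3 libraries of MDA-MB-231 cells in blue and 3 of 231-BR cells in red. Bars give the mean and SD of the log2 values, and the dotted line marks 0 FPKM. TGM2 stands at 137 to 142 FPKM in the parental line and at 0.32 to 0.38 in 231-BR cells, and the other 5 genes are below 1 FPKM in every library.

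TGM1, the keratinocyte enzyme anchored to the membrane, went the other way at a low level. It had 0.65, 0.66 and 0.60 FPKM in the 231-BR libraries and 0.22, 0.25 and 0.21 FPKM in the MDA-MB-231 libraries. All 231-BR libraries lay above all parental ones. The means were 0.637 ± 0.032 and 0.227 ± 0.021 FPKM (mean ± SD, n = 3 each), with a log2 fold change of 1.17 on the log2(FPKM + 0.1) scale.

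F13A1 was lower in 231-BR cells, close to the limit of the measurement. It had 0.02, 0.01 and 0.02 FPKM in the 231-BR libraries and 0.21, 0.32 and 0.17 FPKM in the MDA-MB-231 libraries. These groups did not overlap either, and the 231-BR values were 1 or 2 times the rounding step of the table, 0.01 FPKM. The log2 fold change was -1.49, and it moved from -0.28 to -3.17 as the pseudocount went from 1 to 0.01, so that its size is not fixed by these data.

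The epidermal genes TGM3 and TGM5 and the prostate gene TGM4 were at or near 0. TGM3 was listed at 0.01 FPKM in 1 library of 231-BR cells and at 0 in the other 5 libraries. TGM4 had 0.11, 0.07 and 0.11 FPKM in 231-BR and 0.07, 0.03 and 0.03 FPKM in MDA-MB-231 cells, with a shared value of 0.07. TGM5 had 0.02, 0.08 and 0.10 FPKM in 231-BR and 0.11, 0.15 and 0.06 FPKM in MDA-MB-231 cells, and the libraries of the lines overlapped. These 3 genes had a mean under 0.1 FPKM and were left out of the fit.

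In all, 3 of the 6 genes, TGM1, TGM2 and F13A1, had no overlap between the lines, beside 65.7% of all genes in the matrix. The same 3 genes passed the filter on low values, and F13A1 passed it only through its level in MDA-MB-231 cells. Among the genes that passed the filter the share without overlap was 78.4%, so the count says nothing particular about the family.

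The order of the genes by FPKM, which is a level per length of transcript, was not the same in the lines. In MDA-MB-231 cells TGM2 came first, followed by F13A1 and TGM1, whose libraries overlapped, by TGM5 and TGM4, whose libraries also overlapped, and by TGM3. In 231-BR cells TGM1 came first, with every library above those of TGM2, which was second. TGM4, TGM5, F13A1 and TGM3 followed, and the libraries of each of these overlapped with those of the next. The summed FPKM of the 6 genes was 137 to 143 in the MDA-MB-231 libraries, with 99.5% to 99.7% from TGM2, and 1.14 to 1.21 in the 231-BR libraries, with 28.1% to 31.4% from TGM2. Without TGM2 the sum was 0.47 to 0.75 FPKM in MDA-MB-231 and 0.81 to 0.83 FPKM in 231-BR cells. The other members together thus stayed under 1 FPKM in every library of either line.

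**Figure D2:**
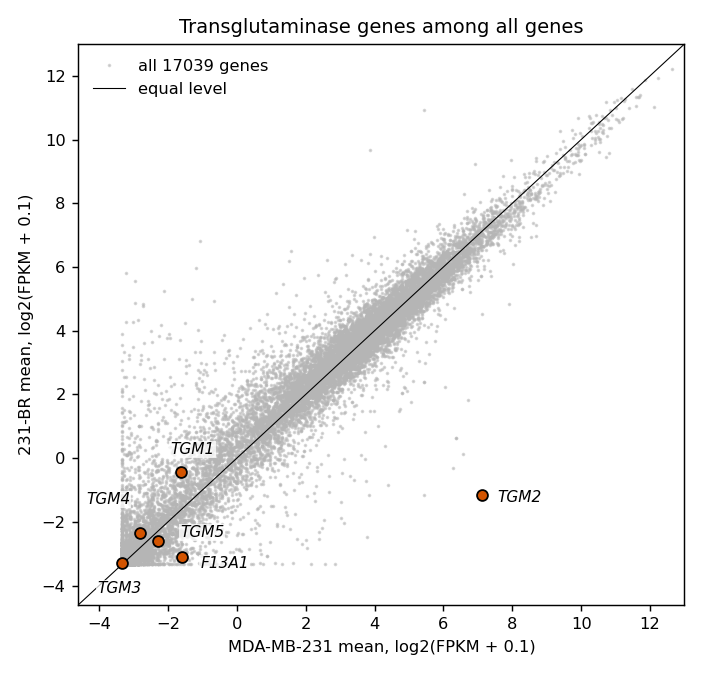
Mean level of all 17039 genes in MDA-MB-231 cells (horizontal axis) and 231-BR cells (vertical axis), both as log2(FPKM + 0.1), with the 6 transglutaminase genes in orange and the line of equal levels in black. TGM2 lies apart from the other genes at the lower right, with means of 140 and 0.353 FPKM, while the other members are among the genes of low level in both lines.

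TGM2 lies at chr20:38127387-38166578 on the minus strand of GRCh38 in GENCODE release 29, and its longest coding transcript has 5070 bases. Its last exon overlaps the end of RPRD1B, which codes for a protein that binds RNA polymerase II and lies on the plus strand. The overlap, chr20:38127387-38127780, covers 394 bases, or 7.77% of the TGM2 transcript, all of them noncoding. Of 9 annotated RPRD1B transcripts, 1 reaches this stretch. In the library preparation no step that marks the strand is described, and without one, reads of TGM2 and of RPRD1B cannot be told apart there. RPRD1B had 23.3 ± 1.13 FPKM in 231-BR and 27.6 ± 0.561 FPKM in MDA-MB-231 cells (mean ± SD, n = 3 each). TGM4 also overlaps an annotated noncoding gene, and TGM5 and F13A1 overlap small RNA genes. What share of the 0.353 FPKM of TGM2 in 231-BR cells came from this stretch was not tested.

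The 40 tested genes nearest to TGM2 were also looked at. As TGM2 had the largest decrease of all genes tested, none of them could fall as far. By the gene order of RefSeq on GRCh38.p14, in which 13355 of the 13465 genes tested were placed, the median log2 fold change of the 20 tested genes on either side was -0.32, with values from -1.80 to 2.58. Calls used an adjusted p under 0.05 from limma and an absolute log2 fold change over 1. By these, 2 of the 40 neighbours were higher and 5 were lower in 231-BR cells, beside 10.9% higher and 4.34% lower over all genes tested. RPRD1B and TTI1, which codes for a partner of the kinase mTOR, had log2 fold changes of -0.24 and -0.27, and RALGAPB on the other side had -0.14. None of these 3 reached the fold threshold. KIAA1755, the nearest tested gene on the side where TGM2 starts, fell from 0.26 ± 0.056 to 0.027 ± 0.012 FPKM (mean ± SD, n = 3 each), with a log2 fold change of -1.50 (adjusted p = 6.6e-05, standard error 0.20). KIAA1755 passed the filter on low values only through MDA-MB-231 cells. VSTM2L and ARHGAP40, each the third tested gene from TGM2 on its side, rose with log2 fold changes of 1.28 (adjusted p = 4.5e-05) and 2.58 (adjusted p = 1.8e-07). After quantile normalization VSTM2L, at 0.86, was short of the threshold. Around TGM1 on chromosome 14 the median of the 40 neighbours was 0.31, and around F13A1 on chromosome 6 it was -0.14.

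**Figure D3:**
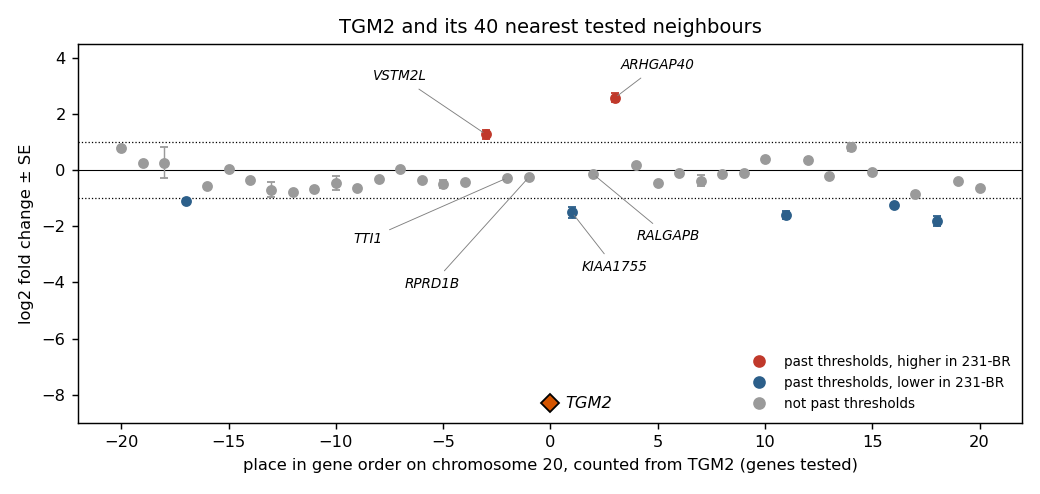
Log2 fold change of 231-BR relative to MDA-MB-231 cells (vertical axis, with its standard error) for TGM2 and the 20 tested genes on either side in gene order on chromosome 20 (horizontal axis). TGM2, at -8.28, has the largest decrease of all genes tested and so had to lie below its 40 neighbours. The lowest of these is at -1.80.

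The genes whose levels over the 6 libraries were most like those of TGM2 were found by the root mean square difference of the log2(FPKM + 0.1) values. KRT7, a keratin of simple epithelia, was nearest with a difference of 0.86, followed by TGFBI, a matrix protein induced by TGF-beta, with 0.98 and by KISS1, a metastasis suppressor, with 1.22. The fourth and the fifth were XAGE1B and XAGE1A, cancer-testis antigens whose values are identical in the table, with 1.38. KRT7 had 0.72, 0.60 and 0.82 FPKM in 231-BR and 69.42, 77.97 and 83.69 FPKM in MDA-MB-231 cells. TGFBI had 0.89, 0.93 and 1.14 FPKM against 93.34, 95.44 and 95.01 FPKM. Each of these genes was at least 40 FPKM in every parental library and under 2 FPKM in every 231-BR library.

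Genes linked to the transglutaminases were listed in 7 groups by role. The lists hold 132 genes in all, of which 115 were in the matrix and 87 could be tested, and the other 17 were not analysed here. Of the 87, 13 were higher and 16 were lower in 231-BR cells at the thresholds above. This is 33.3%, beside 15.2% of all genes tested. Over all genes tested 10.9% were higher and 4.34% were lower, and these shares also stand beside the counts of each list below. After quantile normalization the split of the partner genes was 9 higher and 19 lower. The lists were written with earlier results of these data known, so neither the share of 33.3% nor the counts by list are evidence about the family. Their median log2 fold change was -0.05, against 0.08 for all genes tested.

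At the cell surface TGM2 binds integrins, syndecans and other receptors. Of 11 such genes tested, 3 were lower and 2 were higher in 231-BR cells, and the median log2 fold change was -0.58. ADGRG1, an adhesion receptor that binds the TGM2 protein, fell from 44.6 ± 0.382 to 12.4 ± 0.358 FPKM (mean ± SD, n = 3 each), with a log2 fold change of -1.84 (limma, adjusted p = 3.3e-11, standard error 0.032). ITGAV, the integrin alpha V chain, and SDC4, the heparan sulfate proteoglycan syndecan-4, fell with log2 fold changes of -1.25 (adjusted p = 8.5e-09) and -1.11 (adjusted p = 7.4e-11). LRP1, an endocytic receptor that takes up TGM2, rose from 0.273 ± 0.038 to 1.61 ± 0.035 FPKM (mean ± SD, n = 3 each, adjusted p = 7.0e-08). SDC2, another syndecan, had 8.94, 8.84 and 9.91 FPKM in 231-BR and 2.07, 2.12 and 1.81 FPKM in MDA-MB-231 cells and rose with a log2 fold change of 2.15 (adjusted p = 3.4e-09). ITGB1, the beta 1 chain of integrins with which TGM2 acts as a co-receptor for fibronectin, remained the most expressed of the list, with 479 FPKM in MDA-MB-231 and 246 FPKM in 231-BR cells. Its log2 fold change of -0.96 was short of the threshold, and with median-of-ratios scaling it was -1.04 and passed.

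Of the matrix proteins that TGM2 crosslinks or binds, 10 could be tested, and 4 were lower and 3 were higher in 231-BR cells. COL18A1, the source of endostatin, fell from 17.1 ± 1.33 to 1.94 ± 0.064 FPKM (mean ± SD, n = 3 each), with a log2 fold change of -3.07 (adjusted p = 9.1e-11, standard error 0.064). MFAP2, a microfibril protein, and SPARC, a collagen-binding protein at under 1 FPKM, fell with log2 fold changes of -1.59 (adjusted p = 3.7e-08) and -1.47 (adjusted p = 3.0e-05). The fourth gene that fell was COL5A1. FN1, which codes for fibronectin, the best known matrix substrate, rose from 7.84 ± 0.272 to 20.3 ± 0.225 FPKM (mean ± SD, n = 3 each), with a log2 fold change of 1.36 (adjusted p = 7.7e-10). FBN1, for fibrillin-1, rose with a log2 fold change of 1.33 (adjusted p = 9.4e-08). SPP1, for osteopontin, passed the thresholds with a log2 fold change of 1.11 (adjusted p = 0.017), but it had 0.18, 0.30 and 0.08 FPKM in 231-BR and 0, 0.10 and 0 FPKM in MDA-MB-231 cells, and the libraries overlapped. SPP1 passed the filter on low values only through 231-BR cells, and it lost its call after quantile normalization and without replicate 1 or 3 of MDA-MB-231. The substrate genes past the thresholds thus lay in both directions.

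Inside the cell TGM2 modifies or binds many proteins, and 24 of their genes were tested. Of these, 3 were higher, 1 was lower and 20 did not pass the thresholds. PPARG, a nuclear receptor, rose with a log2 fold change of 2.60 (adjusted p = 1.0e-10), and MAPT, for the protein tau, rose from 0.107 ± 0.015 to 0.403 ± 0.021 FPKM (mean ± SD, n = 3 each). SLC25A4, a carrier of ADP and ATP in mitochondria, rose with a log2 fold change of 1.07 (adjusted p = 3.2e-08). With other scalings SLC25A4 was short of the threshold, at 0.98 with median-of-ratios and 0.94 with quantile normalization, as was MAPT, at 0.93, with the latter. NFKBIA, whose product holds NF-kB in the cytoplasm, fell from 65.5 ± 2.15 to 20.7 ± 0.390 FPKM (mean ± SD, n = 3 each), with a log2 fold change of -1.66 (adjusted p = 5.8e-11). RHOA, which TGM2 can activate by transamidation, had 439 and 454 FPKM in 231-BR and MDA-MB-231 cells, a log2 fold change of -0.05. Of the genes that act on the activity of TGM2 itself, TXN, for thioredoxin, which reduces and activates the enzyme, had a log2 fold change of -0.32, and PDIA3, for ERp57, which oxidises and inactivates it, had -0.68.

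**Figure D4:**
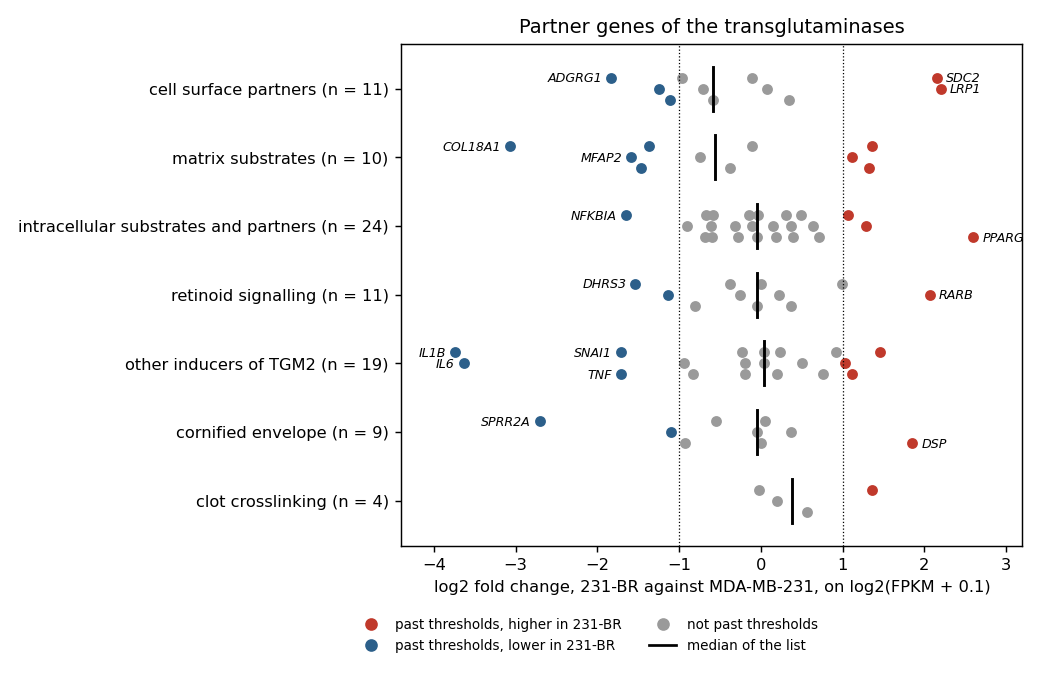
Log2 fold change of 231-BR relative to MDA-MB-231 cells on log2(FPKM + 0.1) (horizontal axis) for each tested gene of the 7 partner lists (rows), with the genes past the thresholds in red where higher and in blue where lower in 231-BR cells, and the median of each list as a black bar. The dotted lines mark fold changes of -1 and 1. Genes past the thresholds lie on both sides in every list but the last, where FN1 alone passed.

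Retinoic acid is a classic inducer of TGM2 transcription. Of the 11 tested genes of retinoid signalling, 1 was higher, 2 were lower and 8 did not pass the thresholds. Without MDA-MB-231 replicate 1 the count was 1 higher and 0 lower. RARB, a receptor that is itself induced by retinoic acid, rose from 0.083 ± 0.035 to 0.667 ± 0.117 FPKM (mean ± SD, n = 3 each), with a log2 fold change of 2.07 (adjusted p = 4.4e-06). RARB passed the filter on low values only through 231-BR cells. DHRS3, a retinal reductase, had 0.03, 0 and 0 FPKM in 231-BR and 0.23, 0.20 and 0.22 FPKM in MDA-MB-231 cells and fell (adjusted p = 6.5e-05). Its mean passed the filter only through the parental libraries, and with any of them left out it was not tested. RARRES3, a retinoid-responsive gene, fell with a log2 fold change of -1.14 (adjusted p = 0.00097), which was short of the threshold at -0.90 when replicate 2 of 231-BR was left out and at -0.99 when replicate 1 of MDA-MB-231 was. All 3 were under 2 FPKM in every library, and none passed with a pseudocount of 1. The receptors at higher levels differed less. RARA had 9.85 and 11.8 FPKM in 231-BR and MDA-MB-231 cells, RARG had 8.19 and 7.05 FPKM, and RXRA had 5.90 and 10.4 FPKM, with log2 fold changes of -0.26, 0.22 and -0.81. RXRB had 18.6 and 14.4 FPKM, with 0.37. RDH10, another gene of the list, had 2.28 and 1.10 FPKM and was just short of the threshold with 0.99. CYP26B1, which breaks down retinoic acid, had 3.75 FPKM in both lines, and the libraries overlapped.

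Among 19 tested cytokines, receptors and factors reported to raise TGM2, 4 were lower and 3 were higher in 231-BR cells. The inflammatory cytokine genes IL1B and IL6 fell most. IL1B had 0.80, 0.82 and 1.02 FPKM in 231-BR and 13.75, 12.62 and 12.66 FPKM in MDA-MB-231 cells, a log2 fold change of -3.75 (adjusted p = 2.4e-10, standard error 0.090). IL6 had 0.33, 0.35 and 0.21 FPKM against 4.73, 4.64 and 4.95 FPKM, a log2 fold change of -3.64 (adjusted p = 6.2e-09). TNF fell from 0.27 ± 0.020 to 0.013 ± 0.012 FPKM (mean ± SD, n = 3 each), and it passed the filter on low values only through MDA-MB-231 cells. The fourth gene that fell was SNAI1, for the transcription factor Snail. EGFR, TGFB2 and SMAD4, for a growth factor receptor, a TGF-beta ligand and the common mediator of TGF-beta signals, rose with log2 fold changes of 1.45 (adjusted p = 6.5e-09), 1.12 (adjusted p = 5.9e-09) and 1.03 (adjusted p = 5.1e-08). SMAD4 was short of the threshold at 0.95 with median-of-ratios scaling and at 0.79 with quantile normalization. Of the genes of NF-kB subunits, only RELA and NFKB1 were in the list. They did not pass the thresholds, with log2 fold changes of -0.23 and 0.04. TGFB1 had 39.4 ± 0.538 FPKM in 231-BR and 38.3 ± 0.919 FPKM in MDA-MB-231 cells (mean ± SD, n = 3 each), and the libraries overlapped.

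The substrates of the epidermal enzymes were mostly at low levels. Of 24 genes of the cornified envelope, 16 were in the matrix and 12 of these had a mean under 1 FPKM in both lines. Of the 9 tested, 1 was higher and 2 were lower in 231-BR cells. DSP, for desmoplakin, a desmosomal protein that is also crosslinked into the envelope, rose from 4.70 ± 0.384 to 17.2 ± 0.579 FPKM (mean ± SD, n = 3 each), with a log2 fold change of 1.85 (adjusted p = 1.9e-09). SPRR2A, a small proline-rich substrate, was listed at 0 in every 231-BR library and at 0.69, 0.47 and 0.52 FPKM in the MDA-MB-231 libraries (adjusted p = 4.4e-07). SPRR2A passed the filter on low values only through MDA-MB-231 cells. PI3, for the protease inhibitor elafin, fell from 0.60 ± 0.161 to 0.223 ± 0.046 FPKM (mean ± SD, n = 3 each), with a log2 fold change of -1.10 that was short of the threshold at -0.97 when replicate 2 of 231-BR was left out and at -0.94 when replicate 3 of MDA-MB-231 was. Of the 15 genes of clot crosslinking, 4 were tested and FN1 alone passed the thresholds. F13B, for the carrier subunit of factor XIII, was at most 0.04 FPKM in any library.

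Markers of the cells that make the other members were checked in the same libraries. The 5 macrophage markers summed to 0.12 to 0.30 FPKM in 231-BR and 0.12 to 0.24 FPKM in MDA-MB-231 cells, where F13A1 had up to 0.32 FPKM. Of 5 platelet lineage markers, 2 were in the matrix and summed to at most 0.17 FPKM, and the 1 prostate marker in the matrix, ACPP, was at most 0.07 FPKM. Of the 5 keratinocyte markers 4 were in the matrix. They summed to 9.79 to 10.1 FPKM in 231-BR and 8.98 to 9.06 FPKM in MDA-MB-231 cells, mostly from KRT10. KRT10 had 9.05 FPKM in 231-BR and 8.76 FPKM in MDA-MB-231 cells. TP63, the transcription factor of basal keratinocytes, had 0.81, 0.90 and 0.54 FPKM in 231-BR and 0.27, 0.24 and 0.23 FPKM in MDA-MB-231 cells, without overlap, as in 78.4% of all genes tested. KRT14 had 0.07 to 0.15 FPKM in 231-BR cells and was listed at 0 in MDA-MB-231 cells, and KRT5 was at most 0.03 FPKM in either line. The part of such cells in the values of the members was not tested. Markers known of the MDA-MB-231 line were present in both lines, so their presence does not tell the lines apart. Their levels differed. EGFR had 91.2 FPKM in 231-BR and 33.3 FPKM in MDA-MB-231 cells. VIM was slightly higher in 231-BR cells, with a log2 fold change of 0.15. KRT8, KRT18 and CD44 were lower, with -0.43, -0.37 and -0.47. Neither these nor VIM reached the fold threshold. VIM, KRT8, KRT18, CD44 and EGFR summed to 3250 to 3295 FPKM in 231-BR and 3123 to 3213 FPKM in MDA-MB-231 cells, PGR was at most 0.07 FPKM, and ESR1 was 0.74 to 1.08 FPKM. ERBB2, which was listed with these receptors as absent in triple-negative cells, had 9.88 FPKM in 231-BR and 4.95 FPKM in MDA-MB-231 cells. The brain markers GFAP, AQP4 and SOX10 were at most 0.07 FPKM, and the 5 brain markers together, mostly MBP, summed to 20.9 to 21.4 and 12.8 to 14.3 FPKM. The 3 endothelial markers, mostly TIE1, summed to 36.7 to 38.1 FPKM in 231-BR and 5.72 to 6.27 FPKM in MDA-MB-231 cells. The epithelial junction markers CDH1 and EPCAM summed to 8.34 to 9.32 and 4.44 to 5.52 FPKM. Nearly all of this was EPCAM, and CDH1 was at most 0.03 FPKM in any library. The part of cells with these markers in the values of TGM2 was not tested.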

How the data were processed

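The authors filtered the reads with SOAPnuke, aligned them with HISAT2 2.0.4 to the genome (GRCh38.p12 per the submitters' processing notes) and with Bowtie2 2.2.5 to a gene set, and deposited FPKM per gene with 2 decimals. The program that computed the FPKM is not given in the sources used here. The lowest value above 0 was 0.01, the rounding step, so the worth of 1 read could not be read off, the depth is unknown, and no count test was run. The 6 libraries had summed FPKM of 465020 to 496420 and 10785 to 11178 genes at 1 FPKM or more. The lowest correlation of log2 values, across genes, was 0.997 within a line and the highest between lines was 0.902.

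A model of log2(FPKM + 0.1) on the line was fitted in limma 3.58.1 (R 4.3.3), by lmFit and eBayes with trend, to genes with a mean of at least 0.1 FPKM, and p-values were adjusted by Benjamini-Hochberg over all 13465 genes. The fit was tested on simulated data. The members, lists and tests were chosen with earlier results of these data known. Named were all members, the 3 largest increases and decreases past the thresholds in each list, the 3 tested neighbours on each side of TGM2 and the 5 profiles nearest to it. CXCL1, COL5A1, SNAI1 and partners short of the thresholds were chosen after their values were seen. Gene positions and sequences came from GENCODE release 29. With 3 libraries a line, an exact 2-sided permutation test of 1 gene cannot go below p = 0.1. The alternatives were other pseudocounts, filters, scalings, eBayes without trend, a replicate block, and each library left out.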

Additional observations from a re-analysis of the deposited data

How the results depend on the processing

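The lower level of TGM2 in 231-BR cells kept its direction under every alternative run. Its log2 fold change was -6.71 with a pseudocount of 1, -8.60 with 0.01 and -8.42 after quantile normalization, and -8.22 to -8.32 when single libraries were left out. The count of 3 members without overlap became 1 when a mean of 1 FPKM was asked for, because TGM1 and F13A1 were then not tested, and 4 without 231-BR replicate 2, MDA-MB-231 replicate 1 or MDA-MB-231 replicate 3. Without MDA-MB-231 replicate 2, F13A1 was under the filter. The log2 fold change of TGM1 was 0.42 with a pseudocount of 1 and 0.77 after quantile normalization. Over all genes, 2051 passed the thresholds, 997 with a pseudocount of 1 and 1294 with a filter at a mean of 1 FPKM. Of the partner genes 29 passed, 17 with a pseudocount of 1, 19 with that filter and 26 to 30 with a library left out. The share of higher calls over all genes was 71.5%, and 52.8% after quantile normalization, which moved the median of all genes from 0.08 to -0.06. Among the partner genes the split was 13 higher and 16 lower, 11 and 18 after median-of-ratios scaling, and 9 and 19 after quantile normalization. RARB, DHRS3, TNF, MAPT, SPARC, SPRR2A, FBN1, SLC25A4, SMAD4, PI3, RARRES3, SPP1, KIAA1755 and VSTM2L were short of the fold threshold with a pseudocount of 1. SPP1 also lost its call without MDA-MB-231 replicate 1 and without MDA-MB-231 replicate 3 (adjusted p = 0.059 and 0.061) and after quantile normalization (0.86, adjusted p = 0.066), and it was not tested without 231-BR replicate 1 or 2. Genes with no call changed sign: with median-of-ratios and quantile normalization CYP26B1 (-0.079 and -0.26), NFKB1 (-0.040 and -0.012), with the former TGFB1 (-0.044), and CYP26B1 with single libraries left out (-0.037 to 0.071). Libraries with the same replicate number did not deviate together (correlations of 0.087, -0.040 and -0.11), and with a replicate block 2053 genes and 29 partner genes passed. Depth is unknown, and values of a few hundredths of an FPKM are within a few rounding steps of 0.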
